A study of Mus musculus with 4 samples.

Results

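The receptors for the interleukin-1 family of cytokines were examined in regulatory T cells sorted by whether they carried Nrp1 (neuropilin-1). The group holds 7 genes, Il18r1, Il18rap, Il1rl1, Il1r1, Il1r2, Il1rap and Sigirr, out of 18193 genes that have a probe set listed with that gene alone. The members are one receptor family, chosen by the difference of Il18r1 and its relatives between Nrp1+ and Nrp1- cells on these same arrays, so their differences are a description and carry no test. Of the 7 genes, 6 had a probe set of their own, and these genes had 12 probe sets among 45101. Il1rl1, which encodes the interleukin-33 receptor chain ST2, had no probe set listed with it alone and was not analysed here.

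The cells were CD4+ Foxp3+ spleen cells of mice of the strain Balb/c Foxp3 GFP, sorted into cells without Nrp1 (Nrp1-) and with it (Nrp1+), with 2 arrays in each group and 4 in all. No array had a treatment in its labels. Mice were 4 to 6 weeks old for 3 arrays and 4 to 8 weeks for Nrp1- replicate 1, whose source name and cell type read as positive and whose title reads as negative. Groups follow the titles. Nrp1 RNA was lowest on that array, as its title reads. Whether arrays of a group stand for separate animals or sorts is not stated, so the spread between these arrays may be technical. In the fit with the replicate number as a block, the p-values rest on how far the differences within replicates 1 and 2 disagree. That disagreement is mostly pooled over genes of similar level, and it may be technical too. Only the fits without the block rest on the spread between arrays of a group. Values are scanner signal intensities brought to one trimmed mean, and each difference is the Nrp1+ value less the Nrp1- value on the log2(intensity + 11.9) scale, taken within replicate 1 and within replicate 2 and then averaged. This scale understates the change of dim genes.

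These receptors work in pairs. Interleukin-18 binds the chain encoded by Il18r1 and then recruits the accessory chain encoded by Il18rap. Interleukin-1 binds the Il1r1 product and interleukin-33 binds ST2, and both share the accessory chain encoded by Il1rap. The Il1r2 product is a decoy that binds interleukin-1 without signalling, and Sigirr encodes an inhibitory member of the family. Inside the cell the paired chains recruit MyD88, IRAK kinases and TRAF6 and activate NF-kB. On regulatory T cells, ST2 and the interleukin-18 receptor are known from tissue-resident and activated subsets.

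In the RefSeq annotation of the mouse genome (GRCm38.p6), 6 protein-coding genes of the family follow one another on chromosome 1 in the order Il1r2, Il1r1, Il1rl2, Il1rl1, Il18r1 and Il18rap. The annotated start of Il18r1 lies 133 bases after the annotated end of Il1rl1. The sequence between them and the 250 bases before the start of Il18rap are shown because Il18r1 and Il18rap encode the paired chains of one receptor. At the brightest probe set of each gene they also had the largest differences among the 6 measured members, which do not include Il1rl1. Both are on the plus strand, at chr1:40465419-40465551 and chr1:40515112-40515361, from RefSeq. Capitals mark matches to GGAAA, the core that NFAT factors bind, and to CANNTG, the E-box, on either strand.

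Il18r1: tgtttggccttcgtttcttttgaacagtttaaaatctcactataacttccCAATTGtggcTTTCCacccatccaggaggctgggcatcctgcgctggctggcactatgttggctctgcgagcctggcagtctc

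Il18rap: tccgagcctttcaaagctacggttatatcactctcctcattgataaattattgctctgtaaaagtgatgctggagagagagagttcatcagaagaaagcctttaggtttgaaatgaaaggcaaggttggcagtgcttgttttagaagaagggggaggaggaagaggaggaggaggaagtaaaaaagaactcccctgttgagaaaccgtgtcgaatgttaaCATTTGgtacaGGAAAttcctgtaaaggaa

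Each stretch held 1 match to GGAAA and 1 to CANNTG, and the matches did not overlap. Among 32851 RefSeq windows before a gene start, GGAAA occurs in 33.8% of those of 133 bases and 55.6% of those of 250 bases, and CANNTG in 43.6% and 66.2%. Neither stretch held, on either strand, the site TGANTCA that AP-1 factors bind, which occurs in 3.77% of windows of 133 bases and 6.75% of those of 250. The same was true of AGATAA for GATA-family proteins, with shares of 4.92% and 9.99%. It was also true of TGTTTA for forkhead proteins, with shares of 5.98% and 12.0%, and of TTCNNNGAA for STAT proteins, with shares of 3.59% and 7.02%. RefSeq lists 3 starts for Il18r1, and the stretch shown lies before the first.

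The sort was recovered in the RNA. Nrp1 had intensities of 220 and 795 in Nrp1- replicates 1 and 2 and of 6074 and 5035 in Nrp1+ replicates 1 and 2. The T cell genes Cd3e and Cd4 differed by at most 0.19 in size within either replicate number, while the Foxp3 probe set lay below the filter on dim probe sets, at intensities from 1.40 to 23.6. Arrays with the same replicate number had been scaled by the authors to the same trimmed mean, 500.003 for both arrays of replicate 1 and 150.001 for both of replicate 2, and correlated more closely across 10192 genes (0.980 and 0.984) than arrays of one group (0.941 and 0.956), where genes do not count as independent replicates. The libraries of replicate 1 also differed in Xist, a noncoding RNA of female cells, at 2654 in the Nrp1- and 54.1 in the Nrp1+ array, against 8488 and 8859 in replicate 2. A difference in sex and the Nrp1 difference cannot be told apart within replicate 1.

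Il18r1 was higher in Nrp1+ cells by more than the other measured receptor genes. Its intensity was 488 in Nrp1- replicate 1, 1565 in Nrp1- replicate 2, 2389 in Nrp1+ replicate 1 and 2854 in Nrp1+ replicate 2. Both Nrp1+ arrays lay above both Nrp1- arrays, and the lowest value by far was that of Nrp1- replicate 1. The group means were 1027 ± 761 and 2621 ± 328 (SD, n = 2), negative first. The difference was 2.26 within replicate 1, or 4.80-fold, and 0.86 within replicate 2, or 1.82-fold, with a mean of 1.56 ± 0.99 (SD of the 2 differences), or 2.95-fold.

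The Il18r1 difference was larger in the replicate number that holds the array whose labels conflict. Nrp1- replicate 2 was 1.66 above Nrp1- replicate 1 on the log2 scale, while the Nrp1+ arrays were 0.25 apart. With Nrp1- replicate 1 counted as Nrp1+, as its source name reads, the difference was −0.06, in a grouping that sets 1 array of replicate 2 against 3 arrays of both replicate numbers. The Nrp1 intensity of that array was 220, against 6074 and 5035 in the Nrp1+ arrays, which goes with its title and not with this grouping. Among the 10192 genes, 8 had a larger mean difference than Il18r1. The family was chosen by this difference, so nothing is read from the rank.

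Il18rap, the accessory chain of the same receptor, was read by 2 probe sets that did not give the same picture. At probe set 1456545_at the intensities were 106 and 231 in Nrp1- replicates 1 and 2, and 230 and 355 in Nrp1+ replicates 1 and 2. The Nrp1+ array was the higher one within each replicate number, by 1.04 and 0.59, yet the groups overlapped slightly, with Nrp1+ replicate 1 just below Nrp1- replicate 2. The mean difference was 0.81 ± 0.31 (SD of the 2 differences), or 1.76-fold, and −0.15 with Nrp1- replicate 1 counted as Nrp1+. At the dimmer probe set 1421291_at the intensities were 50.5 and 54.2 in Nrp1- and 45.1 and 83.8 in Nrp1+ arrays, and the difference was −0.13 within replicate 1 and 0.53 within replicate 2.

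**Figure D1:**
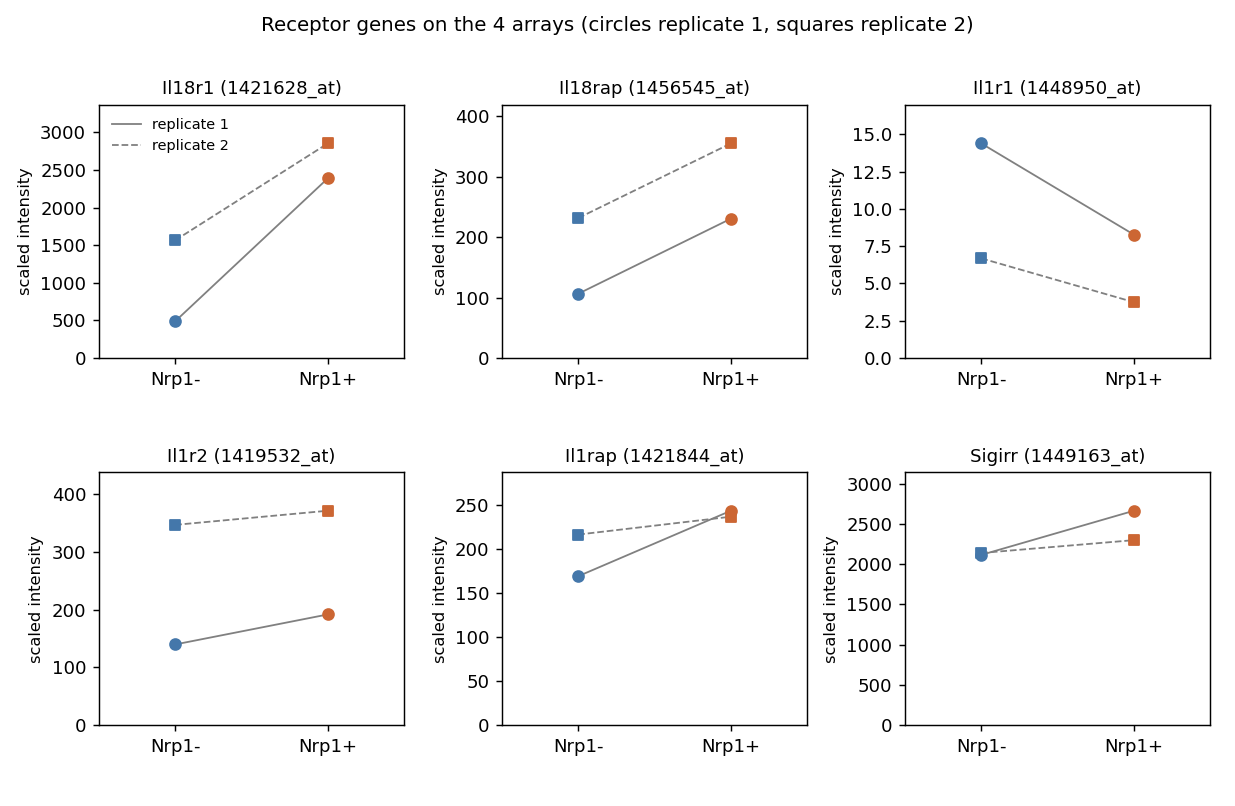
Scaled intensity (vertical axes, linear from 0, one scale per gene) of the brightest probe set of each of the 6 measured receptor genes in Nrp1- and Nrp1+ cells, with circles and solid lines for replicate 1 and squares and dashed lines for replicate 2. Il18r1 goes from 488 to 2389 and from 1565 to 2854 along its lines, whereas the Il1r2 lines stay apart from each other and nearly flat, and those of Il1r1 lie below 15.

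The receptors and accessory chain of the interleukin-1 branch differed less. Il1r1, the signalling receptor for interleukin-1, was dim on every array, at 14.4 and 6.69 in Nrp1- replicates 1 and 2 and 8.27 and 3.75 in Nrp1+ replicates 1 and 2. Its difference of −0.31 is on values below the filter. It was −0.49 with a smaller value than 11.9 added before the logarithm, −0.11 with a larger one and 0.12 with Nrp1- replicate 1 counted as Nrp1+. Its second probe set, 1459777_at, ranged from 1.28 to 6.08. The decoy receptor gene Il1r2 had intensities of 140 and 346 in Nrp1- and 192 and 371 in Nrp1+ replicates 1 and 2. Here the arrays fell by replicate number rather than by Nrp1, with differences of 0.42 and 0.10 between groups but of 1.24 and 0.91 between replicates 2 and 1 in Nrp1- and Nrp1+ cells. Its mean difference between groups was 0.26 ± 0.23, and −0.65 with Nrp1- replicate 1 counted as Nrp1+.

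Il1r2 is known from neutrophils and other myeloid cells, and the summed markers of those cells moved with the replicate number too. Of 10 neutrophil markers, 8 had a probe set, and their summed intensity was 9709 and 32744 in Nrp1- and 11386 and 30542 in Nrp1+ replicates 1 and 2. S100a8, an abundant neutrophil gene, was at 3917, 13679, 4603 and 13686 in the same order. Together with S100a9, at 3409, 13383, 4047 and 11896, it made up most of each neutrophil sum. The 10 myeloid and dendritic cell markers summed to 1240 and 8214 in Nrp1- and 1723 and 7451 in Nrp1+ replicates 1 and 2. Most of each sum came from Lyz2, at 707 and 5845 against 1041 and 5528. Not every marker followed the replicate number. Cxcr2 stayed between 81.3 and 89.9, and Siglech was lower in replicate 2 in both groups. Elane and Flt3 moved in opposite directions in Nrp1- and Nrp1+ cells. None of the markers was listed at 0. The part of these cells in the Il1r2 values was not tested, and in sorted bulk samples fewer cells of a type and less RNA per cell cannot be told apart.

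Il1rap, the accessory chain shared by the receptors for interleukin-1 and interleukin-33, had intensities of 169 and 216 in Nrp1- replicates 1 and 2 and of 243 and 236 in Nrp1+ replicates 1 and 2 at its brightest probe set, 1421844_at. The groups did not overlap, and the differences were 0.50 and 0.12, with a mean of 0.31 ± 0.26. The mean was 0.12 with the probe sets of the gene averaged and −0.017 with Nrp1- replicate 1 counted as Nrp1+. The other 4 Il1rap probe sets took opposite signs in the 2 replicates. Among them 1449585_at passed the filter, at 79.8 and 50.3 in Nrp1- and 67.5 and 77.7 in Nrp1+ arrays, with differences of −0.21 and 0.53. The 3 that did not pass had intensities from 0.777 to 38.2.

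Sigirr, the inhibitory receptor of the family, varied little. Its intensity was 2115 and 2139 in Nrp1- replicates 1 and 2 and 2662 and 2298 in Nrp1+ replicates 1 and 2. The groups did not overlap, but the differences of 0.33 and 0.10 average to 0.22 ± 0.16, or 1.16-fold. Sigirr was also the measured receptor gene whose difference stayed above 0 in each of the 10 alternative settings that were run for it, from 0.10 to 0.33. Not all of these could move it. Dropping the block or averaging its 1 probe set leaves the value as it is, and leaving out an array returns the difference of the other replicate number. With Nrp1- replicate 1 counted as Nrp1+ the difference was 0.13.

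At the brightest probe set of each gene, 5 of the 6 measured receptor genes were higher in Nrp1+ cells within both replicate numbers, and Il1r1 was lower in both. The 5 are also those that passed the filter, and the family was chosen with this contrast known, so nothing is read from the count. Of all 10192 genes tested, 27.9% were higher within both replicate numbers and 26.0% lower. Over all 12 receptor probe sets, 5 were higher in both, 1 was lower in both and 6 took opposite signs. The groups did not overlap for Il18r1, Il1rap and Sigirr, with Nrp1+ above, a pattern that 12.0% of all genes tested had, while 9.12% had Nrp1+ below without overlap.

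At the brightest probe set of each gene, the 5 differences were larger in replicate 1 than in replicate 2. The second passing probe sets of Il18rap and Il1rap went the other way, at −0.13 and −0.21 in replicate 1 and 0.53 each in replicate 2. The median of the 5 was 0.50 in replicate 1 and 0.12 in replicate 2, where that of all genes tested was 0.0063 and 0.0055. The family was chosen by this contrast and the 5 are the genes higher in both, so nothing is read from that gap. Among all 2844 genes higher in both, the difference was larger in replicate 1 for 54.5%. Each of the 5 differences from replicate 1 uses the same array with conflicting labels, so they are not separate observations.

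**Figure D2:**
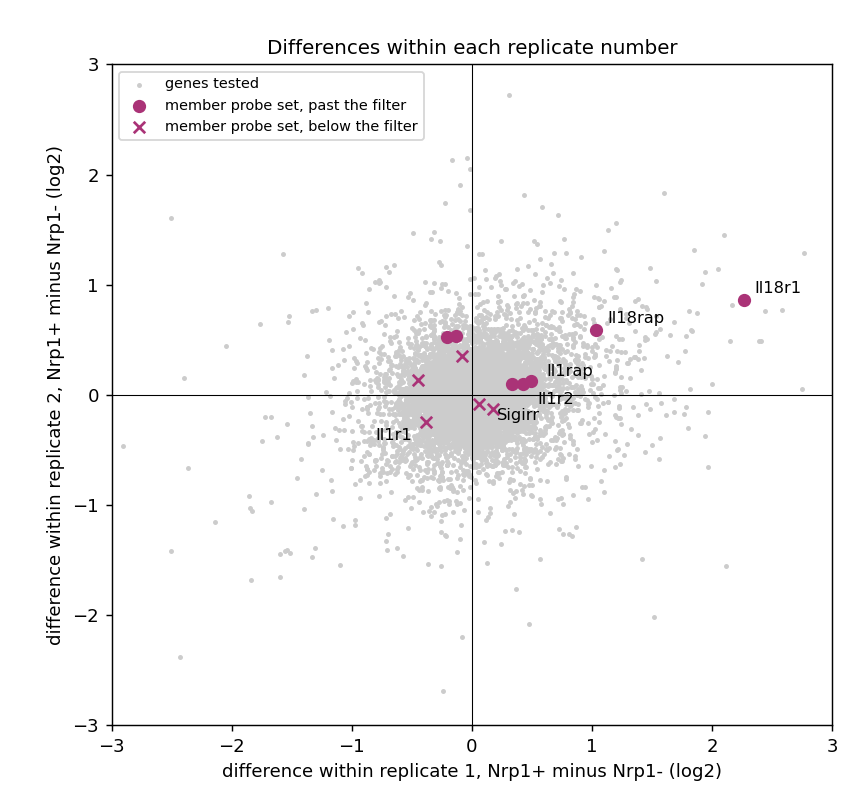
Difference between Nrp1+ and Nrp1- cells within replicate 1 (horizontal axis) and within replicate 2 (vertical axis), both in log2 units, for the 10192 genes tested (grey, of which 2 lie outside the range of 3 drawn) and the 12 receptor probe sets (filled circles past the filter on dim probe sets, crosses below it). Il18r1 lies at 2.26 and 0.86 and Il18rap at 1.04 and 0.59, each at its brightest probe set, while the brightest probe sets of Il1r2, Il1rap and Sigirr lie near the horizontal axis. The second passing probe sets of Il18rap, at −0.13 and 0.53, and of Il1rap, at −0.21 and 0.53, lie apart from these.

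Along this stretch of chromosome 1, Il18r1 and Il18rap had the largest differences among the genes past the filter, with each gene read at its brightest probe set. The second passing probe set of Il18rap had a mean difference of 0.20, which is below the 0.26 of Il1r2. On one side, Map4k4, a kinase gene beside Il1r2, differed by −0.30 and 0.24, and on the other Mfsd9, a transporter-like gene, differed by 0.04 and 0.0017. Slc9a4, a sodium-proton exchanger gene directly after Il18rap, was below the filter, with intensities from 3.28 to 24.4. Its differences of −0.73 and −1.25 are on these dim values. Of 14 genes listed as neighbours of the cluster, 6 were tested, and in limma with the replicate number as a block 0 were called higher and 0 lower at an adjusted p below 0.05, with a median difference of 0.0069. Il1rl2, the interleukin-36 receptor gene inside the cluster, was below the filter, at 29.7 and 63.5 in Nrp1- and 47.5 and 14.5 in Nrp1+ arrays, and the brain-expressed receptor genes Il1rapl1 and Il1rapl2 did not exceed 14.0.

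**Figure D3:**
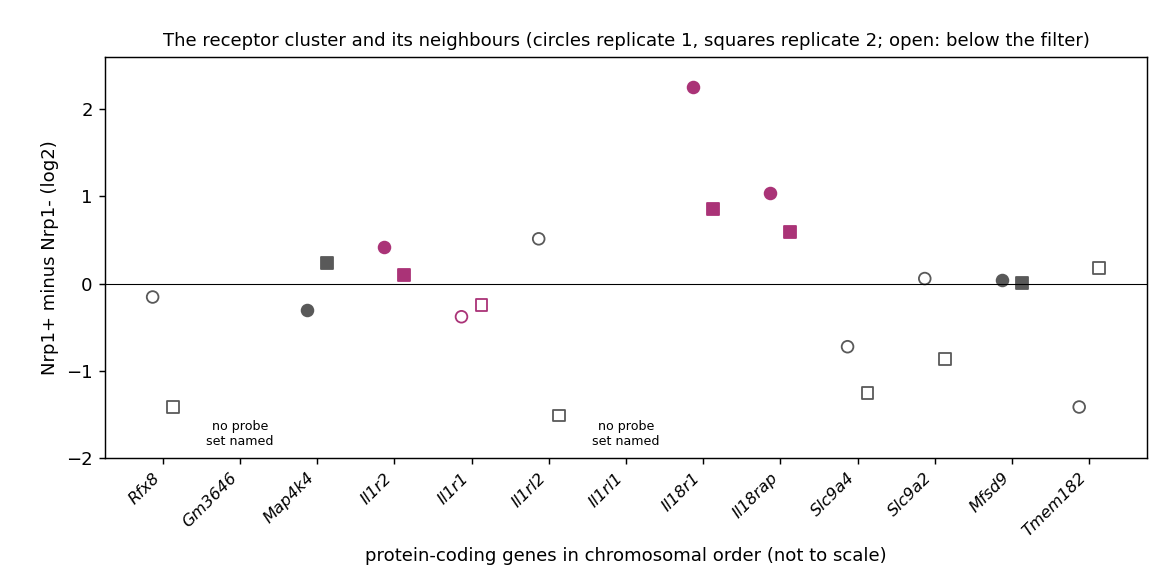
Difference between Nrp1+ and Nrp1- cells (vertical axis, log2) for the receptor cluster on chromosome 1 and its protein-coding neighbours in chromosomal order, with circles for replicate 1, squares for replicate 2, filled symbols for genes past the filter and open symbols for dimmer genes. Each gene is drawn at its brightest probe set. There Il18r1 and Il18rap stand above 0.5 in both replicates, and Map4k4 and Mfsd9 lie within 0.31 of 0. The second passing probe set of Il18rap, at −0.13 and 0.53, is not drawn.

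The genes around the receptors were described from 9 lists with 113 genes, of which 78 were tested. In limma with the replicate block, 0 of the 78 were called higher and 1 was called lower, Il10, where 0.285% and 0.167% of all 10192 genes were called. At an unadjusted p below 0.05 there were 12 of the 78, against 877 of all 10192 genes in the same fit. Limma without the block called 0 of the 10192 genes, with 146 at an unadjusted p below 0.05, and with the block but with no trend of variance on mean level 0 passed, with 868 at an unadjusted p below 0.05. The called gene, Il10, encodes an immunosuppressive cytokine and had intensities of 273 and 281 in Nrp1- and 38.3 and 98.2 in Nrp1+ replicates 1 and 2. Its groups did not overlap, and it differed by −1.96 with a standard error of 0.30 (limma adjusted p = 0.0344 with the block, 1.00 without it).

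Ligands and their soluble inhibitors were mostly dim. Il1b, the gene of interleukin-1 beta, had intensities of 290 and 1783 in Nrp1- and 338 and 1575 in Nrp1+ replicates 1 and 2. Like Il1r2 and the summed neutrophil markers, Il1b followed the replicate number, and its difference between groups was 0.02. Il18 was at 57.4 in Nrp1- replicate 1 and between 151 and 163 on the other 3 arrays, a difference of 0.65 (limma adjusted p = 0.612 with the block). Il18bp, which encodes a soluble trap for interleukin-18, was at 41.7 and 99.5 in Nrp1- and 22.9 and 56.8 in Nrp1+ arrays, a difference of −0.66, and Il1rn, the interleukin-1 receptor antagonist, differed by −0.62 (limma adjusted p = 0.672 and 0.699 with the block). None of these 4 tested genes passed. Il33, Il1a and Il1f10 fell below the filter, with Il33 between 1.16 and 23.8.

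The enzymes and adaptors that process these cytokines had a median difference of 0.33 over 6 tested genes, at 0.60 within replicate 1 and 0.05 within replicate 2, and 0 were called. Casp4, an inflammatory caspase gene, had intensities of 152 and 271 in Nrp1- and 295 and 425 in Nrp1+ replicates 1 and 2. Its groups did not overlap, and its difference of 0.77 had an adjusted p = 0.147 in limma with the block. Casp1, whose product cleaves the precursors of interleukin-1 beta and interleukin-18, was at 226 in Nrp1- replicate 1 and between 435 and 488 on the other arrays. Pycard, the inflammasome adaptor, differed by 0.16 and Gsdmd, the pore-forming gasdermin D gene, by 0.01.

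The signalling chain below the receptors had a median difference of 0.03 over 22 tested genes, with 13 above 0, 9 below 0 and 0 called. Its brightest genes were Peli1, a ubiquitin ligase gene, at −0.16, Tab2, an adaptor of the kinase TAK1, at 0.18, Ikbkb, the gene of the kinase IKK-beta, at −0.20, and Ube2v1 at 0.0072. The adaptor gene Myd88 and the kinase gene Irak2 were picked out after their values were seen. Myd88 was at 1498 and 1077 in Nrp1- and 1116 and 858 in Nrp1+ replicates 1 and 2, a difference of −0.37, and Irak2 at 415 and 428 against 566 and 621, a difference of 0.48. Neither passed in limma with the block (adjusted p = 0.280 and 0.262).

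NF-kB subunits and response genes had mostly small positive differences. Of 15 tested, 14 were above 0, 10 were higher within both replicate numbers and 0 were called, and the median was 0.17 against 0.0040 over all genes tested. Nfkbia, the inhibitor that NF-kB induces against itself, differed by 0.16, Birc3 by 0.06, Nfkbiz by 0.06 and Traf1 by 0.17. Tnfaip3, the gene of the NF-kB feedback inhibitor A20, and the adhesion molecule gene Icam1 were picked out after their values were seen. Tnfaip3 was at 2194 and 1457 in Nrp1- and 2838 and 1859 in Nrp1+ replicates 1 and 2, a difference of 0.36, and Icam1 at 836 and 1047 against 1185 and 1287, a difference of 0.40 (limma adjusted p = 0.247 and 0.272 with the block).

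Toll-like receptors and their adaptors, which use the same MyD88 chain, had a median difference of 0.0052 over 10 tested genes, with 0 called. Tlr1, the brightest, was at 3369 and 2513 in Nrp1- and 2765 and 2667 in Nrp1+ arrays. Genes that work with interleukin-18 in type 1 responses had a median of −0.11 over 7 tested genes, with 0 called. Among them the chemokine receptor gene Cxcr3 differed by −0.09, the transcription factor genes Stat4 and Eomes by −0.21 and −0.11, and the interferon-gamma receptor gene Ifngr1 by −0.14.

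Genes known from ST2-positive tissue regulatory T cells went in both directions. Beside Il10, which was called lower, 7 of the 8 tested did not pass, and the list median was 0.18. Klrg1, a lectin-like receptor of terminally differentiated cells, had intensities of 775 and 1642 in Nrp1- and 1585 and 2273 in Nrp1+ replicates 1 and 2, a difference of 0.74 (limma adjusted p = 0.0705 with the block). As with Il18r1, Nrp1- replicate 1 was the lowest array. Rora, a nuclear receptor gene picked out because other settings call it, was at 752 and 1134 against 1292 and 1629, a difference of 0.65 (limma adjusted p = 0.0600 with the block). Maf, a transcription factor gene, differed by −0.54, at −0.54 within each replicate number (limma adjusted p = 0.0700 with the block), while Gata3, the type 2 lineage factor, and Batf differed by 0.20 and 0.27.

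**Figure D4:**
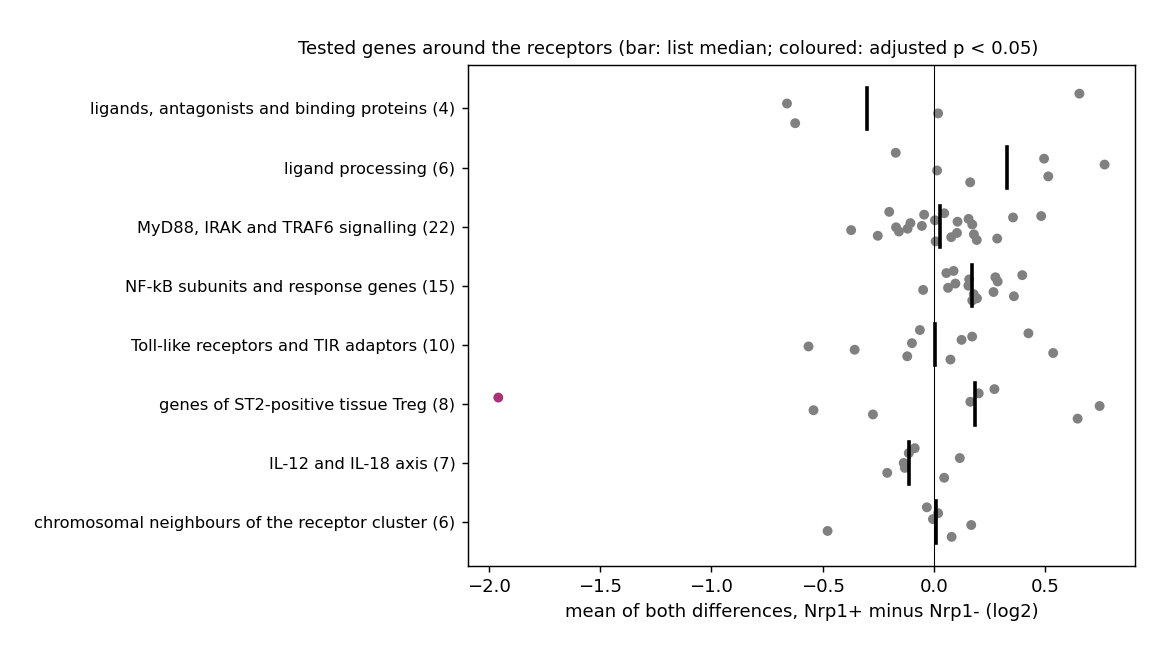
Mean of the differences within replicates 1 and 2 (horizontal axis, log2) for each tested gene of 8 lists around the receptors, with the number of tested genes in parentheses, a black bar at each list's median and colour for a gene called in limma with the replicate block. The NF-kB list lies mostly to the right of 0 with a median of 0.17, and the coloured point at −1.96 is Il10; the ninth list, of other receptors of the family, had no gene past the filter.

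Markers of other cells known to carry these receptors were summed on each array. Natural killer and CD8 T cell markers, 8 of 10 with a probe set, summed to 928 and 2075 in Nrp1- and 1154 and 1617 in Nrp1+ replicates 1 and 2. The Nrp1+ sum was the higher one in replicate 1 and the lower one in replicate 2. These markers did not move together. Nkg7, at 124 against 367, rose most in replicate 1. Ncr1, Klra8, Prf1 and Gzma were lower in the Nrp1+ array within both replicate numbers. Nkg7, Cd8a and Cd8b1 were higher within both, and Klrk1 took opposite signs. Mast cell and basophil markers, 7 of 8, summed to 211 and 758 against 193 and 696. The 8 markers of group 2 innate lymphoid cells summed to 3225 and 3036 against 4057 and 3892. Most of each sum came from Gata3, at 1698 to 2561, and Rora, at 752 to 1629, which are shared with regulatory T cells. The others did not follow this order together. Il17rb was at 32.9 and 153 in Nrp1- and 132 and 136 in Nrp1+ replicates 1 and 2. Nmur1 did not exceed 47.5 and was lower in the Nrp1+ array within both replicate numbers, and Il13 did not exceed 12.0. Markers of B cells ranged from 290 to 359 in sum. Erythroid markers, 4 of 6 with a probe set and 1 past the filter, summed to 129 and 157 in Nrp1- and 61.0 and 72.0 in Nrp1+ replicates 1 and 2. The 10 regulatory T cell markers summed to 39739 and 39719 in Nrp1- and 50212 and 49316 in Nrp1+ arrays. The largest part of this gap came from Ikzf2, at 6119 and 6693 against 12370 and 10523. Of 9 tested, 6 were higher within both replicate numbers, Cd3e was lower in both, and Ctla4 and Cd3g took opposite signs. Foxp3, below the filter, was lower in both. In limma with the block, 2 of the 9 were called higher, Ikzf2 and Ikzf4, where 0.285% of all genes tested were. None of these markers was listed at 0, and their part in the receptor differences was not tested.

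The genes whose pattern over the 4 arrays was closest to that of Il18r1 were Itga7, Klf12, Hdac9, Mfsd4b4 and Plagl1, by Euclidean distance between log2 values after each gene's own mean was taken away. The distances were 0.30, 0.32, 0.38, 0.42 and 0.45, and 79 genes lay within 1. Itga7, an integrin alpha chain gene, was at 8.00 and 58.2 in Nrp1- and 93.8 and 86.5 in Nrp1+ replicates 1 and 2. Plagl1, a zinc finger transcription factor gene, was at 77.9 and 226 against 373 and 639. All 5 shared the low value in Nrp1- replicate 1, which follows from how they were picked. For Il1r1, the member with the largest negative difference, the closest were Tbc1d16, Dag1, Zswim1, Dnmt3b and Gpr180, at 0.04 to 0.05, but 8308 of the 10192 genes lay within 1, so the pattern hardly separates it from other genes.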

How the data were processed

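RNA of sorted cells was extracted with Trizol, labelled with biotin and hybridised to 1-colour Affymetrix arrays, per the labels' protocols. The authors deposited linear probe set intensities from MAS5, per the submitters' processing notes, with its version not given in the sources used here. Each array had been scaled to a 2% trimmed mean, which differed 3.33-fold between replicate numbers. All arrays were brought to one trimmed mean (325) and analysed as log2(intensity + 11.9), with a pseudocount of 0.25 times the mean array median. Of 45101 probe sets, 34945 were named with 1 gene by the platform annotation, 932 with several and 9160 with none, and 64 were controls. Probe sets at or above percentile 50 were kept and a gene was its brightest passing probe set, which gave 10192 genes.

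The comparison used limma 3.58.1 in R 4.3.3 (two-sided, mean-variance trend, Benjamini-Hochberg at 0.05), with the replicate number as a block because the comparison was defined within replicate numbers. The labels do not say what the number marks; deviations from the group means correlated at 0.73 between same-numbered arrays across genes. The block leaves 1 residual degree of freedom beside 7.88 from the prior, so standard errors and p-values rest mostly on genes of similar level. The number of arrays limits precision. The script was tested on simulated data. Genes, lists and rules were chosen with earlier results of these data known. The text names each receptor gene, list genes past the threshold, up to 4 of the brightest others per list, and the 5 genes closest in pattern; genes added after their values were seen are marked. Figures were drawn with matplotlib 3.10.9.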

Additional observations from a re-analysis of the deposited data

How the results depend on the processing

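The median difference of the 6 measured receptor genes was 0.28. It lay between 0.11 and 0.46 with 1 array left out, which leaves the other replicate number, and took a value of −0.040 when Nrp1- replicate 1 was moved to Nrp1+. Quantile normalisation, the pseudocounts and averaging over probe sets moved it by less than the spread between replicates. The replicate block does not change a difference in this balanced design, but it decides the calls. Genes called over all genes numbered 46 with the block, 0 without it and 0 with it but without the mean-variance trend; 166 with quantile normalisation, 189 with probe sets averaged, 76 with the larger pseudocount, 65 with the smaller one, 51 with no filter and 47 with the filter at percentile 60; from 0 to 1 with an array left out and no block; and 0 with the array of conflicting labels counted as positive. Pathway genes called numbered 1 (Il10), 4 with quantile normalisation, 5 with probe sets averaged, 4 with the larger pseudocount, 3 with the smaller one, 1 with no filter and with the filter at percentile 60, and 0 in each fit without the block, with an array left out, without the trend or with the changed label. The added calls were Klrg1 and Rora higher under quantile normalisation, probe sets averaged and either pseudocount, Maf lower under these except the smaller pseudocount, and Casp4 higher with probe sets averaged. Fits with an array left out and no block mix the replicate number with the group and assume that a lone array varies like the other group.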
